A study of Mus musculus with 9 samples.

Results

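Chemokine receptor genes were examined in sorted splenic B cells of wild-type C57BL6 mice. The genes are 9 of the 24346 listed per library, namely Cxcr5, Ccr7, Cxcr4, Ccr6, Cxcr3, Ccr9, Ackr2, Ackr3 and Ccrl2, and each symbol was found in all 9 libraries. They were chosen by name with their FPKM values in these same libraries already known, so their levels and differences are given as a description with no test. The 3 groups were follicular (FO) B cells of 8-week-old mice, called FO B (Young), FO B cells of 50-week-old mice, called FO B (Aged), and age-associated B cells of 50-week-old mice, called ABCs (Aged), with 3 libraries each and, per the study, n = 3 mice each. No animal of these groups carried a transgene. The sort gate of FO B cells included B220hi CD43- CD23+ CD21lo and that of ABCs included B220hi CD43- CD23- CD21lo CD11b+CD11c+, so a gate on surface proteins sets what each group can hold. Values are FPKM, in which reads are divided by the length of a gene and by the mapped reads of its library, so levels may be compared between genes.

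Chemokine receptors are proteins that span the membrane and, on binding a chemokine, signal through Gi proteins to turn a cell towards the source of that chemokine. In the spleen, CXCR5 draws B cells into follicles along CXCL13, CCR7 draws them towards the T zone along CCL19 and CCL21, CXCR4 answers to CXCL12, and CCR6 binds CCL20. CXCR3 binds the interferon-induced chemokines CXCL9, CXCL10 and CXCL11, and CCR9 binds the gut chemokine CCL25. Atypical receptors bind chemokines without Gi signalling. ACKR2 takes up and degrades inflammatory CC chemokines, ACKR3 takes up CXCL12, and CCRL2 presents the chemoattractant chemerin.

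In GENCODE M21 on GRCm38, all 9 genes are annotated as protein-coding. Cxcr3 lies on chromosome X from 101731535 to 101734269 on the minus strand. Cxcr4 (128588199 to 128592293, minus strand) and Ackr3 (90203980 to 90216751, plus strand) lie on chromosome 1. Chromosome 9 holds Cxcr5 (44511787 to 44561877, minus strand), Ccrl2 (111054486 to 111057519, minus strand), Ackr2 (121898355 to 121911074, plus strand) and Ccr9 (123678439 to 123784330, plus strand). Ccr7 spans 99144196 to 99155077 on the minus strand of chromosome 11, and Ccr6 spans 8236043 to 8257141 on the plus strand of chromosome 17. Cxcr5 overlaps Bcl9l on the opposite strand and Ccr9 overlaps Slc6a20a and Lztfl1, also on the opposite strand. The library kit does not mark strand, so reads of such pairs cannot be told apart where their exons overlap.

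The bases before the start sites of Cxcr3, Ackr2 and Cxcr4 are shown because the largest higher values described below, in ABCs or in FO B cells of aged mice, belong to these 3 genes. The sequences are from RefSeq on GRCm38.p6, run 5′ to 3′ on the strand of the gene and stop before the first annotated base of the gene. Capitals mark a TATA box.
Cxcr3, chrX:101734270-101734397, minus strand: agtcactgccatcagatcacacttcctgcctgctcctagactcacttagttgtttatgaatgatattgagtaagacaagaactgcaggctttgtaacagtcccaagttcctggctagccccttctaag
Ackr2, chr9:121898105-121898354, plus strand: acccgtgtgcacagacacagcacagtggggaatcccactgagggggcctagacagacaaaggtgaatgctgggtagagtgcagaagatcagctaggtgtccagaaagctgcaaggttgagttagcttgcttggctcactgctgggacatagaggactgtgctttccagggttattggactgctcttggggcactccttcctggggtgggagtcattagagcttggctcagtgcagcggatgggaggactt
Cxcr4, chr1:128592300-128592549, minus strand: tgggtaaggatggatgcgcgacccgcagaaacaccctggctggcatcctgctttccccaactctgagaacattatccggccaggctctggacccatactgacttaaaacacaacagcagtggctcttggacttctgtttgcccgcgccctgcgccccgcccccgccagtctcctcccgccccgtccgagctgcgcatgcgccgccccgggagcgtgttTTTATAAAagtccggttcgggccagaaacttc
For Cxcr3, 122 of the 250 bases before the RefSeq start lie inside the longer GENCODE gene and are not shown. The RefSeq table held 7 of the 9 genes with 10 start sites, and Cxcr5 and Ccr7 had no entry. The 250 bases before each start were searched on both strands for 3 motifs: GGTGTG, the core bound by T-box factors such as T-bet, CAGGTG, an E-box bound by Zeb proteins, and TATAAA, the TATA box. Among 32851 start sites of all genes, these letters occurred in 16.3%, 17.2% and 12.4%, respectively. Cxcr3 held the E-box on the strand opposite the gene, 116 bases before the RefSeq start, in the part not shown, and no T-box core. Ackr2 held none of the 3 motifs. Cxcr4 held the TATA box 30 bases before its start, and the letters in capitals read TATAAA on both strands. Ackr3 also held TATAAA, 8 bases before its start on the strand of the gene. A T-box core was found before Ccr9, 13 bases from the start, and before 2 of the 3 start sites of Ccrl2, and an E-box before Ccr9 and the other start site of Ccrl2. The Ccrl2 T-box matches, 203 and 229 bases before their starts, were the same letters of the genome and so 1 site. A match is a description of the letters and not of a site in use.

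The libraries were alike in depth, with an estimated 8200000 to 9900000 mapped reads each, and 10032 to 10445 genes reached 1 FPKM. The mean correlation of a library with the others of its group, over genes on the log scale, was 0.961 to 0.976 and was lowest in ABCs replicate 3. The summed level of 7 B lineage genes was 7615 to 8002 FPKM in FO B libraries and 8079, 8432 and 6578 FPKM in ABCs replicates 1, 2 and 3. In ABCs, Fcer2a, which encodes CD23, was at 4.15, 6.95 and 0.463 FPKM in replicates 1, 2 and 3, and Cr2, which encodes CD21, was at 4.93, 8.39 and 0.745 FPKM. FO B cells of aged mice had 697 to 728 FPKM of Fcer2a and 127 to 166 FPKM of Cr2. Itgax, which encodes CD11c and defines the ABC gate, was at 45.0, 59.7 and 47.3 FPKM in ABCs and at most 0.206 FPKM in FO B cells of either age. Spn, which encodes CD43, went against the gate, at 62.6, 54.1 and 86.7 FPKM in ABCs and 2.75 to 3.32 FPKM in FO B (Aged), although both populations were gated as CD43-negative. Itgam, which encodes CD11b, was at 46.2 to 65.7 FPKM in ABCs and at most 0.980 FPKM in FO B cells, and Ptprc, whose product includes B220, was at 264 to 324 FPKM throughout. Among ABCs, replicate 3 was lowest in the B lineage sum, Fcer2a and Cr2 and highest in Spn and Itgam. Results that rest on this library are given with and without it. The FO B (Aged) libraries serve in both comparisons below, so these are not independent.

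Among the receptors that place B cells within lymphoid tissue, Cxcr5 separated ABCs from both FO B groups. Its level was 189, 172 and 168 FPKM in FO B (Young), 166, 148 and 164 FPKM in FO B (Aged), and 56.6, 54.6 and 49.1 FPKM in ABCs. Every ABC library was below every FO B library. The mean of FO B (Aged), 159 ± 9.84 FPKM (SD, n = 3), was 2.98-fold that of ABCs, 53.4 ± 3.86 FPKM (SD, n = 3). The difference in mean log2(FPKM + 1), ABCs minus FO B (Aged), was -1.56 (SE 0.08), and -1.61 to -1.50 with each library left out in turn. In these bulk samples, fewer cells that express a gene and less RNA per cell cannot be told apart. With age among FO B cells, Cxcr5 showed a small difference of -0.14 (SE 0.07) between the log2 means. Every aged library was below every young one in FPKM, but the closest were at 166 and 168 FPKM. With scaling to TPM these groups overlapped.

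Ccr7 had the highest level of the 9 genes in every library. It was at 262, 217 and 275 FPKM in FO B (Young), 246, 304 and 280 FPKM in FO B (Aged) and 250, 244 and 248 FPKM in ABCs. The 3 groups overlapped, and the ABC libraries lay close together. ABCs minus FO B (Aged) gave -0.16 (SE 0.09) on the log2 scale, which turned to 0.03 when libraries were scaled to the upper quartile of genes above 0. Ccr7 was 1.26 to 1.64 times the level of Cxcr5 in young FO B libraries, 1.48 to 2.05 times in aged ones and 4.43 to 5.04 times in ABC libraries. No ABC library overlapped the FO B groups in this ratio, which a scaling factor per library cannot change.

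Cxcr4 was higher in cells of aged mice. Its level was 5.55, 6.11 and 7.91 FPKM in FO B (Young), 10.5, 16.0 and 11.4 FPKM in FO B (Aged), and 13.6, 14.9 and 14.5 FPKM in ABCs. The aged FO B libraries were all above the young ones, with means of 12.7 ± 2.95 and 6.52 ± 1.24 FPKM (SD, n = 3 each), a 1.94-fold ratio. The log2 difference was 0.85 (SE 0.17), and 0.68 to 0.98 with each library left out in turn. ABCs lay within the range of FO B (Aged), with a difference of 0.19 (SE 0.15).

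Ccr6 was at 160, 194 and 165 FPKM in FO B (Young), 186, 210 and 189 FPKM in FO B (Aged), and 143, 151 and 72.1 FPKM in ABCs. All ABC libraries were below all FO B libraries, and ABCs replicate 3 was the lowest by far. The difference from FO B (Aged) was -0.74 (SE 0.26) on the log2 scale with all libraries, and -0.40 (SE 0.08) without ABCs replicate 3. The size of this difference therefore depended on 1 library, whereas its direction was the same in each. Between the FO B groups the Ccr6 levels overlapped, and the difference with age was 0.17 (SE 0.08).

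**Figure D1:**
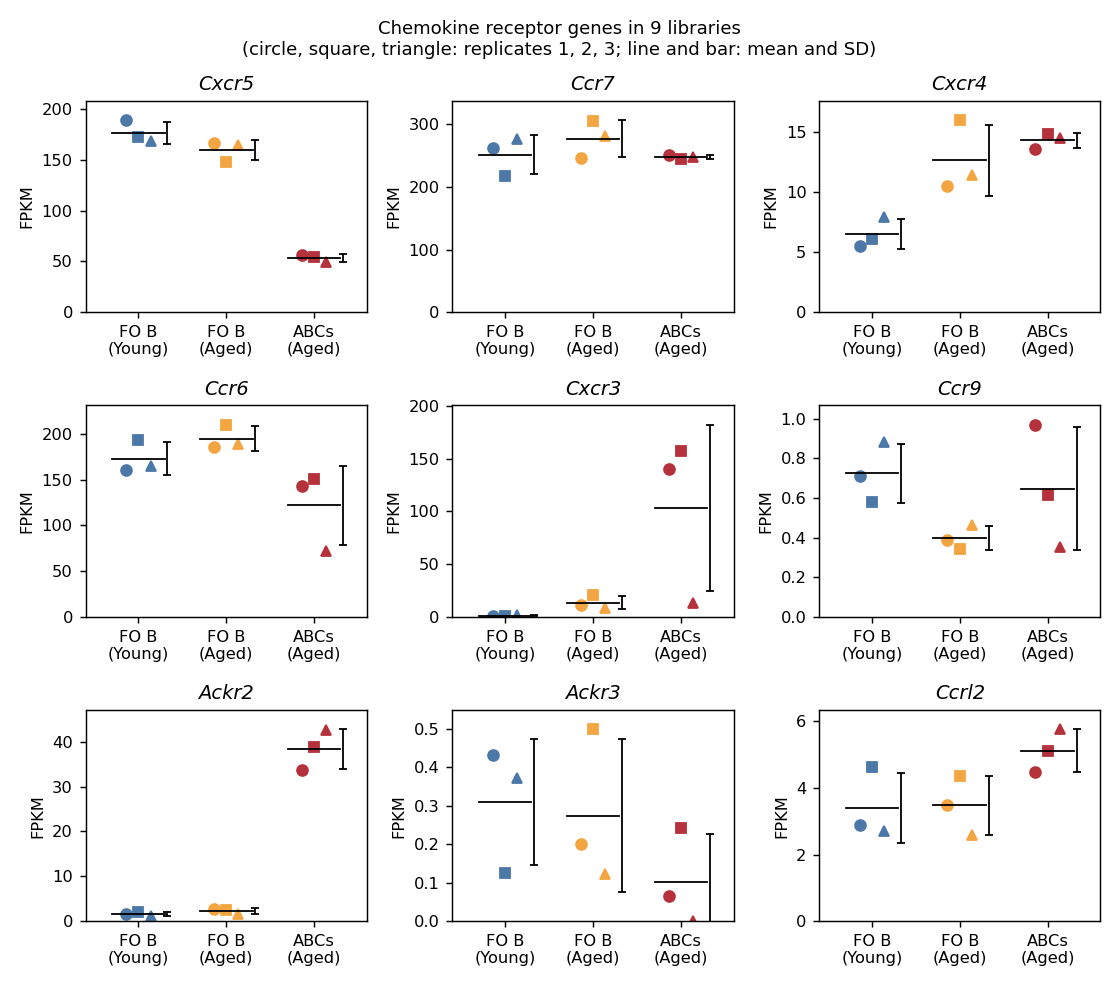
FPKM of the 9 chemokine receptor genes in each library (vertical axes, linear from 0, a separate scale for each gene) by group (horizontal axes). Points are libraries, with shapes for replicates 1 to 3, horizontal lines are means of 3 libraries and bars are SD, cut at 0 for Ackr3. Cxcr5, Ccr6 and Ackr2 separate ABCs from both FO B groups, and for Cxcr3 the third ABC library lies at 12.8 FPKM, far below the others.

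Cxcr3, the receptor for interferon-induced chemokines, showed the widest range of the 9 genes. It was at 0.966, 0.814 and 1.70 FPKM in FO B (Young), 11.4, 20.8 and 8.29 FPKM in FO B (Aged), and 140, 157 and 12.8 FPKM in ABCs. Every aged FO B library exceeded every young one, with means of 13.5 ± 6.53 and 1.16 ± 0.474 FPKM (SD, n = 3 each), an 11.6-fold ratio. On the log2 scale this difference was 2.68 (SE 0.30), and 2.34 to 2.95 with each library left out in turn. With a pseudocount of 0.1 in place of 1 it was 3.39 (SE 0.36), since adding 1 shrinks differences of genes near 1 FPKM. The young FO B values rest on few reads, approximately 13, 11 and 23, against 142, 311 and 111 in FO B (Aged).

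In ABCs, Cxcr3 split the libraries. Replicates 1 and 2 had a mean of 149 FPKM, 11.0-fold that of FO B (Aged), whereas replicate 3 lay within the FO B (Aged) range, at 0.947 of its mean. ABCs minus FO B (Aged) was 2.31 (SE 0.90) with all libraries and 3.46 (SE 0.31) without ABCs replicate 3. Within their own libraries, Cxcr3 stood above 92.6% and 93.5% of the genes that reached 1 FPKM in replicates 1 and 2, and above 45.4% in replicate 3. The mean of ABCs replicates 1 and 2 minus replicate 3 was 3.44 on the log2 scale for Cxcr3. Of 8015 genes that averaged 5 FPKM or more in ABCs, 13 (0.162%, Cxcr3 included) were as high or higher in this difference and 27 (0.337%) were as far from 0. For Ccr6 the same difference was 1.02, which 147 genes (1.83%) reached. For Cxcr4, Cxcr5, Ccr7, Ackr2 and Ccrl2 it lay between -0.23 and 0.17.

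Several T cell, NK cell and plasmacytoid dendritic cell types are also known to express Cxcr3, so marker lists were read beside it. The summed level of 9 T cell genes was 11.7, 38.5 and 5.20 FPKM in ABCs replicates 1, 2 and 3 and at most 1.17 FPKM in FO B libraries. Nearly all of it was Cd3g, at 9.63, 37.0 and 4.93 FPKM, a gene singled out here after its values were seen. The other 8 of 9 T cell genes were below 1 FPKM in every library, and Cd3e was at 0.0996, 0 and 0 FPKM in ABCs. The sum of 8 NK cell genes was 28.3, 26.3 and 38.2 FPKM in ABCs and at most 1.99 FPKM in FO B cells, mostly Prf1, and 6 of the 8 were below 1 FPKM in all libraries. The 5 plasmacytoid dendritic cell genes summed to 36.8, 41.5 and 31.9 FPKM in ABCs and 35.9 to 69.2 FPKM in FO B cells, mostly Bst2, which was lower in ABCs than in FO B (Young). The other 3 genes of this list went the other way, with Siglech at 1.56, 1.16 and 0.664 FPKM, Cox6a2 at 4.10, 8.91 and 0.815 FPKM and Klk1 at 3.13, 2.66 and 1.46 FPKM in ABCs and at most 0.681 FPKM in FO B libraries. These 3 genes, Pacsin1 and the NK cell gene Nkg7 (2.03, 1.84 and 0.202 FPKM) were lowest among ABCs in replicate 3, as Cxcr3 was. Bst2 and Prf1 were highest there. The 9 macrophage and monocyte genes summed to 261 to 310 FPKM in ABCs and 17.3 to 55.0 FPKM in FO B cells, mostly Adgre1 and Ly6c2, and 4 of the 9 were below 1 FPKM throughout. The part of these markers in the Cxcr3 result was not tested. Sums in ABCs against all FO B libraries were 7.57 to 12.5 against 2.08 to 4.91 FPKM for 6 conventional dendritic cell genes, 0 to 0.359 against 0 to 21.3 FPKM for 4 neutrophil genes, and 191 to 225 against 110 to 148 FPKM for 6 plasma cell genes. They were 10.7 to 14.1 against 25.6 to 39.4 FPKM for 5 germinal center B cell genes and 764 to 928 against 500 to 571 FPKM for 6 marginal zone B cell genes. The plasma cell sum was mostly Xbp1. In that list, Jchain (61.6, 40.5 and 12.5 FPKM in ABCs) and Prdm1 (5.70, 4.74 and 2.93 FPKM) were also lowest among ABCs in replicate 3. Sdc1 (9.54, 8.37 and 29.5 FPKM), Irf4 and Xbp1 were highest there. Their part in the Cxcr3 result was not tested either.

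**Figure D2:**
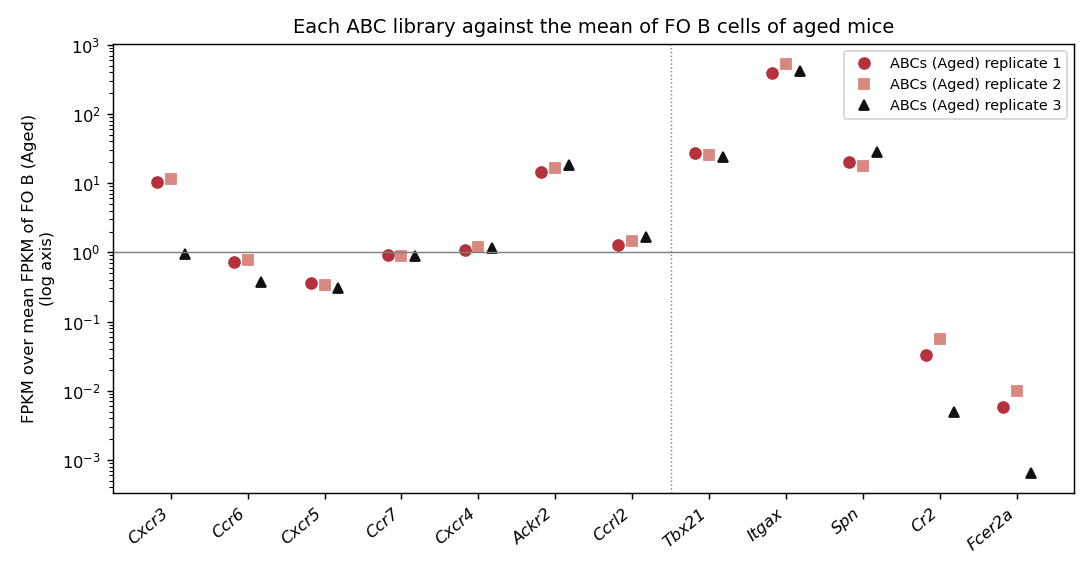
FPKM of each ABC library divided by the mean FPKM of FO B (Aged), on a log axis, for 7 receptor genes (left of the dotted line) and 5 other genes (right). The triangle of replicate 3 sits apart from the others for Cxcr3, Ccr6, Cr2 and Fcer2a, and beside them for Cxcr5, Ccr7, Cxcr4, Ackr2, Tbx21 and Itgax.

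Ccr9, the gut-homing receptor, was near the limit of detection. It was at 0.710, 0.580 and 0.880 FPKM in FO B (Young), 0.388, 0.344 and 0.464 FPKM in FO B (Aged), and 0.970, 0.616 and 0.352 FPKM in ABCs. The aged FO B libraries were all below the young ones, with a difference of -0.30 (SE 0.09) on the log2 scale in a fit with no filter on low values. ABCs overlapped both FO B groups, and their difference from FO B (Aged) was 0.22 (SE 0.15).

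Of the atypical receptors, Ackr2 had the largest difference of the 9 genes between ABCs and FO B (Aged). It was at 1.63, 2.03 and 1.18 FPKM in FO B (Young), 2.79, 2.52 and 1.63 FPKM in FO B (Aged), and 33.7, 38.7 and 42.6 FPKM in ABCs. All ABC libraries, replicate 3 included, were far above all FO B libraries. The ABC mean of 38.3 ± 4.45 FPKM (SD, n = 3) was 16.6-fold that of FO B (Aged), 2.31 ± 0.606 FPKM (SD, n = 3). The log2 difference was 3.58 (SE 0.16), 3.42 to 3.69 with each library left out in turn, and 4.02 (SE 0.20) with a pseudocount of 0.1. The FO B groups overlapped, with a difference with age of 0.34 (SE 0.20).

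Ccrl2 was at 2.90, 4.62 and 2.70 FPKM in FO B (Young), 3.48, 4.36 and 2.58 FPKM in FO B (Aged), and 4.48, 5.11 and 5.77 FPKM in ABCs. The ABC libraries were just above those of FO B (Aged), with a difference of 0.46 (SE 0.18), but overlapped FO B (Young). Between FO B groups the difference was 0.03 (SE 0.21), and its sign changed under scaling (-0.07) and with a library left out. Ackr3 was at 0.432, 0.125 and 0.372 FPKM in FO B (Young), 0.202, 0.499 and 0.123 FPKM in FO B (Aged), and 0.0668, 0.242 and 0 FPKM in ABCs. These values stand for approximately 7, 2 and 6 reads, 3, 9 and 2 reads, and 1, 4 and 0 reads, and the groups overlapped. Ackr3 has 2 transcripts, so its length was searched for a value at which its levels came near whole reads (1820 bases). Whole counts were therefore built in, and another length would give other counts. No difference in Ackr3 was detectable at this depth.

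**Figure D3:**
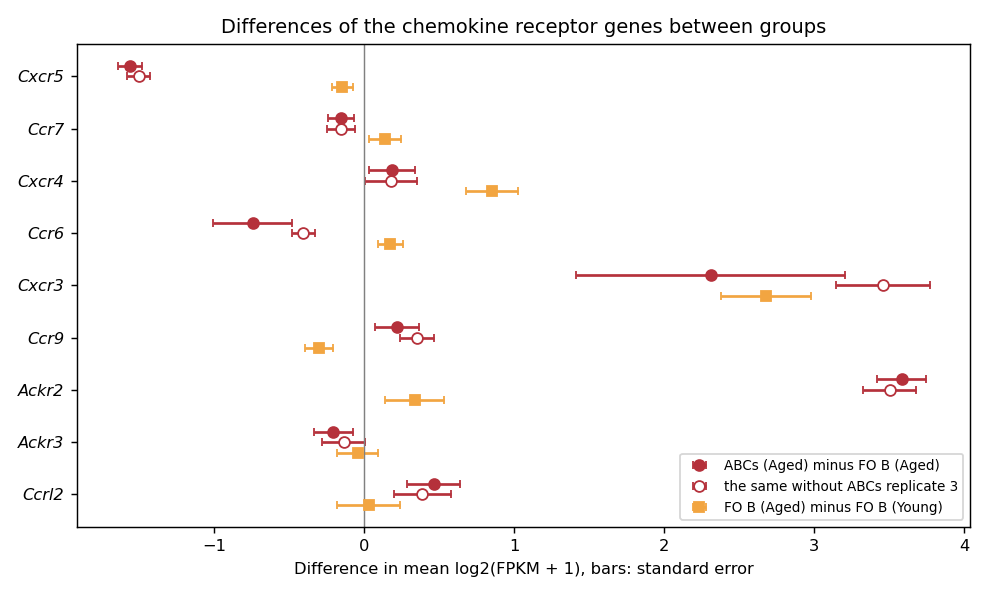
Difference in mean log2(FPKM + 1) of each gene (horizontal axis), with bars for its standard error from limma. Filled circles are ABCs (Aged) minus FO B (Aged), open circles the same without ABCs replicate 3, and squares FO B (Aged) minus FO B (Young). Ackr2 (3.58) and Cxcr5 (-1.56) hold with or without that replicate, whereas Cxcr3 moves from 2.31 to 3.46 and Ccr6 from -0.74 to -0.40.

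An average of 1 FPKM or more, the filter for fits across all genes, was reached by 7 of the 9 receptor genes in each comparison, all but Ccr9 and Ackr3. Between ABCs and FO B (Aged), 2 of the 7 were higher in ABCs without overlap of the groups (Ackr2 and Ccrl2), 2 were lower (Cxcr5 and Ccr6) and 3 overlapped. Among all 10412 genes tested, 26.3% were higher and 26.3% lower without overlap, and limma called 12.0% higher and 7.86% lower at an FDR under 0.01. Between FO B (Aged) and FO B (Young), 2 of the 7 were higher without overlap (Cxcr3 and Cxcr4), 1 was lower (Cxcr5) and 4 overlapped. Of all 10122 genes tested there, 9.64% were higher and 8.96% lower without overlap, while limma called 0.346% higher and 0.119% lower at an FDR under 0.05. Since the genes were selected on these values, nothing is read from their counts. The median difference of the 7 was 0.19 beside -0.01 for all genes in the first comparison, and 0.17 beside 0.00 in the second. Upper-quartile scaling moved the median of all genes to 0.15 and -0.12.

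In each group the genes formed an order of levels. In FO B (Young), Ccr7 came first, followed by Cxcr5 and Ccr6, whose libraries overlapped, and then by Cxcr4, with the other 5 genes below 5 FPKM. In FO B (Aged), Ccr7, Ccr6 and Cxcr5 followed each other without overlap, and Cxcr3 and Cxcr4 overlapped below them. In ABCs, Ccr7 again came first, the Cxcr3 libraries spanned the levels of Ccr6 and Cxcr5, and Ackr2 stood above Cxcr4 without overlap. Ccr9 and Ackr3 were below 1 FPKM in every group.

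The summed level of the 9 genes was 597 to 623 FPKM in young FO B libraries, 627 to 707 FPKM in aged ones, and 643, 667 and 445 FPKM in ABCs. Cxcr5, Ccr7, Cxcr4 and Ccr6 together made up 98.8 ± 0.167% of this sum in FO B (Young), 97.0 ± 1.02% in FO B (Aged) and 76.0 ± 8.89% in ABCs (SD, n = 3 each). Every ABC library was below every FO B library in this share, with 72.1%, 69.7% and 86.2% in replicates 1, 2 and 3. Cxcr3 accounted for 21.8%, 23.6% and 2.88% of the sum in ABCs, and Ackr2 for 5.24%, 5.81% and 9.57%. The ratio of Cxcr3 to Cxcr5 was 0.00474 to 0.0101 in young FO B libraries, 0.0505 to 0.141 in aged ones, and 2.47, 2.88 and 0.261 in ABCs. Each ABC library, replicate 3 included, had more Cxcr3 per Cxcr5 transcript than any FO B library, and the 3 groups did not overlap in this ratio.

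**Figure D4:**
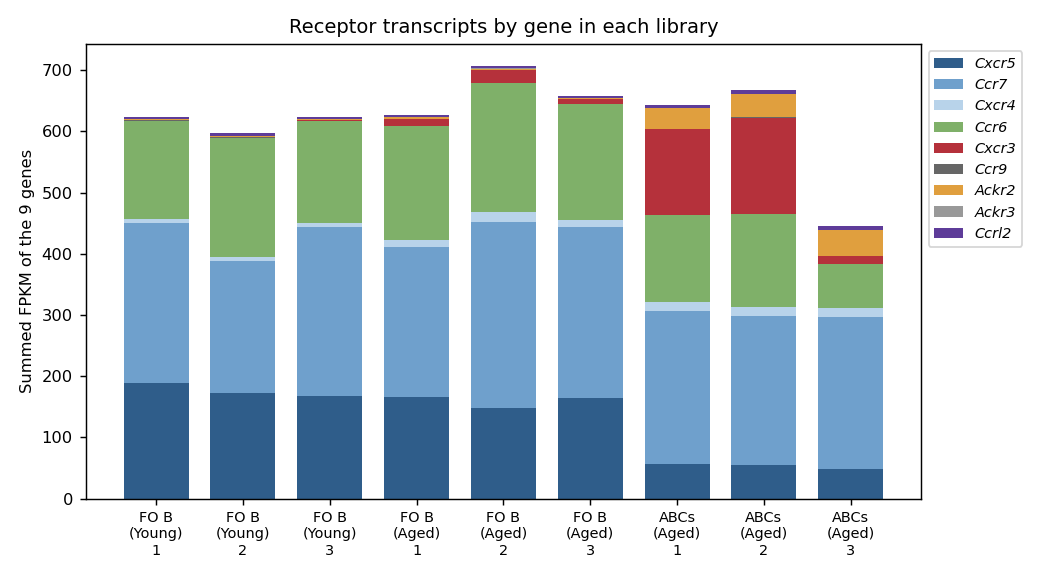
Summed FPKM of the 9 receptor genes (vertical axis, linear from 0) in each library, with 1 color per gene. FO B libraries consist almost wholly of Cxcr5, Ccr7 and Ccr6, ABCs replicates 1 and 2 hold a large Cxcr3 part (21.8% and 23.6%), and Ackr2 is visible in all 3 ABC libraries.

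For the 6 receptor genes that averaged 5 FPKM or more over all libraries, the genes most like them in pattern were taken by Pearson correlation of log2(FPKM + 1) over the 9 libraries, among 8041 genes. These correlations run over 3 groups of libraries, so they mostly describe group means. The genes named below for Cxcr3 and Ccr6 were also all lowest among ABCs in replicate 3, as these receptor genes were. Correlations without that library were not taken. The closest to Ackr2 were Fas (r = 0.999), Itm2c (0.996) and Bcl2a1d (0.996). Fas was at 9.53, 12.7 and 108 FPKM on average in FO B (Young), FO B (Aged) and ABCs. The closest to Cxcr5 were Rfc1, Fcrl1 and Pde2a (each 0.995), all lowest in ABCs. Cxcr3 was most like Tmem165 (0.978), Cmtm3 (0.971) and Rhoh (0.971), and Rhoh means were 56.6, 66.3 and 80.1 FPKM in the same order. Rhoh was at 84.8, 91.0 and 64.6 FPKM in ABCs replicates 1, 2 and 3, and at 61.1 to 72.4 FPKM in FO B (Aged). Ccr6 was most like Sit1 (0.992), Rnf130 (0.977) and Ppp6r1 (0.977), with Sit1 at 13.6, 16.8 and 3.55 FPKM in ABCs replicates 1, 2 and 3. Cxcr4 was most like Cisd1 (0.978), Zfp622 (0.970) and Abhd14b (0.950). Ccr7 reached lower values, with Fam220a (0.871), Mapkapk5 (0.861) and Mir142b (0.843).

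Other chemokine receptors were read from a list of 16 genes. Most were not expressed at a level that could be tested, since 14 of the 16 had a mean below 1 FPKM. Ccr1, a receptor of inflammatory CC chemokines such as CCL3 and CCL5, rose in ABCs (limma, n = 3 libraries each). It was at 1.97, 2.54 and 1.72 FPKM in FO B (Aged) and 21.9, 13.5 and 13.7 FPKM in ABCs, a log2 difference of 2.47 (SE 0.20, FDR = 0.000211). Cxcr2 was at 3.39 ± 0.726 and 2.83 ± 0.458 FPKM (SD, n = 3 each) and was not called (limma FDR = 0.407). Between FO B groups, limma called 0 of the 2 tested, and 0 had an unadjusted p under 0.05, beside 12.8% of all genes tested.

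Of 17 chemokines that the 9 receptors bind, 6 could be tested between ABCs and FO B (Aged), and 3 rose in ABCs while none fell, beside 12.0% of all genes tested that rose and 7.86% that fell. Cxcl10, a CXCR3 ligand, was at 0.693, 0.342 and 0.634 FPKM in FO B (Aged) and 38.6, 34.6 and 102 FPKM in ABCs, a log2 difference of 5.08 (SE 0.38, limma FDR = 0.000143). ABCs replicate 3, lowest in Cxcr3 among ABCs, was highest in Cxcl10. Ccl19, a CCR7 ligand, was listed at 0 in all FO B (Aged) libraries and at 13.7, 7.40 and 27.0 FPKM in ABCs (limma FDR = 0.000425). Ccl5, which ACKR2 binds, was listed at 0 in FO B (Aged) and at 1.92, 4.52 and 5.34 FPKM in ABCs (limma FDR = 0.00141). All 3 genes passed the filter through their level in ABCs alone, so that their count is a description. With no filter on low values, the CXCR3 ligand gene Cxcl11 was also called, at 0 in FO B (Aged) and 0.976, 1.37 and 0.528 FPKM in ABCs (limma FDR = 0.00924). Ccl4 was at 1.05 ± 0.674 and 2.92 ± 1.77 FPKM (SD, n = 3 each; limma FDR = 0.10), and Ccl25 and Rarres2, which encodes chemerin, were not called either. The CXCR5 ligand gene Cxcl13 and the CCR6 ligand gene Ccl20 were listed at 0 in all 9 libraries. With age in FO B cells, 2 of the 17 could be tested and limma called 0. An unadjusted p under 0.05 was seen for 1, beside 12.8% of all genes tested, so nothing is read from it.

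**Figure D5:**
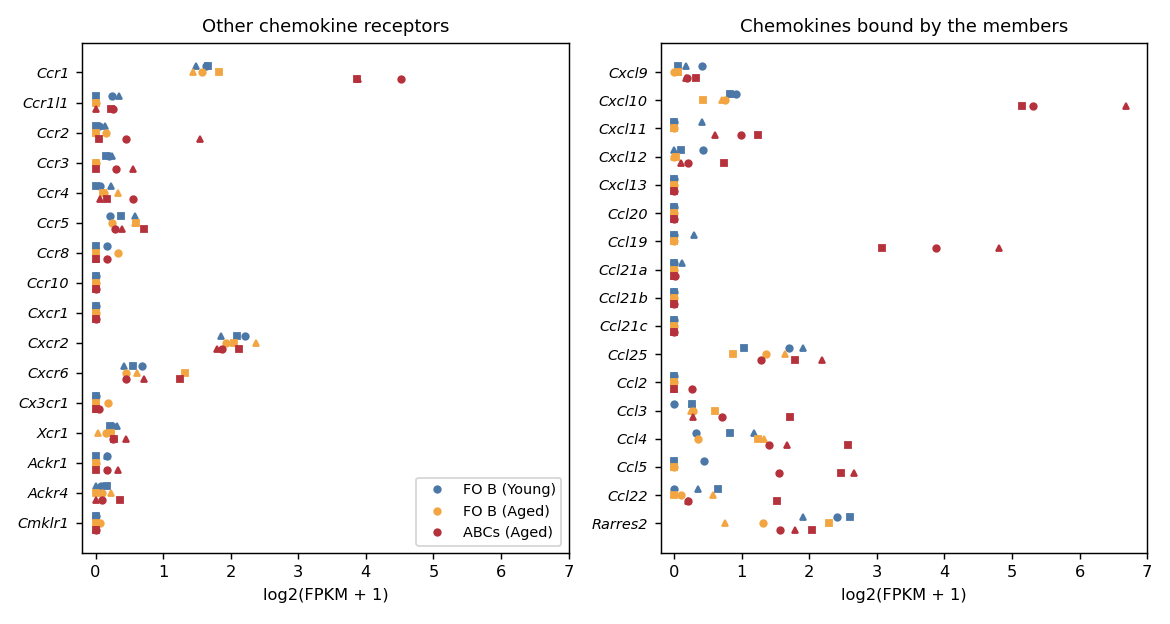
Levels of 16 other chemokine receptor genes (left) and 17 chemokine genes (right) as log2(FPKM + 1) in each library, with 1 color per group and 1 shape per replicate number. Ccr1, Cxcl10, Ccl19 and Ccl5 stand to the right in ABCs, whereas most other genes lie near 0 in every group.

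Genes that act downstream of Gi-coupled receptors were all expressed, and 22 of 22 were tested. Between ABCs and FO B (Aged), 3 rose and 1 fell by the FDR threshold, and the unadjusted p was under 0.05 for 10. Of all genes tested, 19.9% were called and 46.7% had such a p, shares near those of the list. The median difference of the 22 was -0.00 beside -0.01 for all genes. Dock2, an activator of Rac in migrating lymphocytes, was at 118 ± 1.01 FPKM in FO B (Aged) and 180 ± 24.6 FPKM in ABCs (SD, n = 3 each), with a difference of 0.60 (SE 0.10, limma FDR = 0.00401). Elmo1, a binding partner of Dock2, went the other way, from 45.8 ± 0.905 to 29.7 ± 4.48 FPKM, with a difference of -0.62 (SE 0.11, limma FDR = 0.00464). The GTPase genes Rac2 (0.43, SE 0.06, limma FDR = 0.00178) and Rap1a (0.36, SE 0.07, limma FDR = 0.00639) also rose. Each of these 4 calls was lost in at least 1 alternative, where the highest FDR was 0.0206 for Dock2, 0.0227 for Elmo1, 0.0132 for Rac2 and 0.0300 for Rap1a. Plcb2, a phospholipase that Gi-coupled receptors activate, was at 17.8, 16.6 and 16.7 FPKM in FO B (Aged) and 7.45, 7.97 and 0.906 FPKM in ABCs. It was not called with all libraries (limma FDR = 0.0408) but was called lower without ABCs replicate 3 (limma FDR = 0.000239). Pik3cg likewise had an FDR of 0.0169 with all libraries and 0.00316 without that replicate (limma). The genes that were not called also include Gnai2, Gnai3, Gnb1, Gnb2, Gng2, Pik3r5, Pik3cd, Plcb3, Rac1, Rap1b, Rasgrp2, Rassf5, Stk4, Vav1, Cdc42 and Coro1a. Between FO B groups limma called 0 of the 22, and 0 had an unadjusted p under 0.05, beside 12.8% of all genes tested.

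Genes that desensitise receptors were tested for 5 of 6 in ABCs against FO B (Aged), of which 1 rose and 1 fell. Of all genes tested, 12.0% rose and 7.86% fell. Grk5, a kinase of active receptors, was at 0.748, 0.888 and 0.950 FPKM in FO B (Aged) and 6.34, 5.70 and 7.03 FPKM in ABCs, a difference of 1.98 (SE 0.14, limma FDR = 0.000101), and it too passed the filter through ABCs. Arrb2, which encodes an arrestin that uncouples receptors, fell by 0.56 (SE 0.10, limma FDR = 0.00464), from 13.2 ± 0.147 to 8.68 ± 0.848 FPKM (SD, n = 3 each). The Arrb2 call was lost under upper-quartile scaling (limma FDR = 0.103) and with no filter on low values. It was also lost without FO B (Aged) replicate 1, 2 or 3 or without ABCs replicate 2. The kinase genes Adrbk1 and Grk6 and the arrestin gene Arrb1 were not called, with limma FDR of 0.0235, 0.0193 and 0.972. Between FO B groups limma called 0 of 4, with 1 at an unadjusted p under 0.05, Adrbk1 (0.45, SE 0.12, limma FDR = 0.180). Of all genes tested there, 12.8% had such a p.

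Of 4 transcription factors known to act on these receptor genes, Tbx21, which encodes T-bet, an activator of Cxcr3 in T cells, rose in ABCs. It was at 7.45, 8.72 and 4.75 FPKM in FO B (Aged) and 189, 179 and 165 FPKM in ABCs, a difference of 4.52 (SE 0.18, limma FDR = 1.24e-05). ABCs replicate 3 was close to the others in Tbx21, unlike in Cxcr3. Klf2 (0.55, SE 0.13, limma FDR = 0.0142), Foxo1 (-0.39, SE 0.11, limma FDR = 0.0260) and Pou2af1 (-0.19, SE 0.09, limma FDR = 0.124) were not called at an FDR under 0.01. Among FO B cells, Tbx21 was at 2.88, 1.94 and 2.90 FPKM in young mice, below all 3 libraries of aged mice, with a difference with age of 1.14 (SE 0.21). It was not called (limma FDR = 0.0836, from 0.0217 without FO B (Aged) replicate 3 to 0.247 with no filter on low values). Limma called 0 of the 4 factors in this comparison, with 2 at an unadjusted p under 0.05, beside 12.8% of all genes tested. FO B (Aged) replicate 3 was lowest among the aged FO B libraries both in Tbx21 and in Cxcr3, and replicate 2 was highest in both.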

How the data were processed

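The sample labels gave the groups and the replicate numbers. Per the study's methods, RNA was amplified by SMART-Seq HT, made into Nextera libraries and read as single ends of 101 bases, which were aligned to mm10, and the authors deposited FPKM per gene and library without pooling replicates. The submitters' processing notes name TopHat2 2.1.1, Bowtie2 2.2.8, SAMtools 0.1.18 and Cuffdiff 2.2.1, and the methods give other releases. The gene annotation, on which every FPKM depends through gene length, is not given in the sources used here.

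The 9 genes and all gene lists were chosen with earlier results of these data known. The deposited FPKM were taken as log2(FPKM + 1) and fitted with limma 3.58.1 (lmFit, and eBayes with a trend) in R 4.3.3. Each fit used the 6 libraries compared and genes averaging 1 FPKM or more in them, with Benjamini-Hochberg adjustment over all these genes. Genes outside the 9 were called at an FDR under 0.01 for ABCs against FO B (Aged) and under 0.05 between FO B groups. The 9 genes were described with no test. Of each pathway list, called genes (at most 3 in each direction) and genes averaging 5 FPKM or more in any group are named. Marker lists were summed per library, and the sort markers are given gene by gene. Grk2 and Grk3 are in the files as Adrbk1 and Adrbk2, and Ly6g was not found. In the marker lists, 1 gene is not reported here.

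Mapped reads were estimated from the steps between low FPKM values of genes with 1 transcript, of which 75.0% to 80.5% were within 0.1 of a whole read, too few for a count model, so that read numbers are approximate. The fit was tested on simulated data with known changes. Alternatives were a pseudocount of 0.1, other filters, scalings and FDR thresholds, no trend, all 9 libraries in a fit, a replicate block, and each library left out in turn. No libraries held identical values. Python 3.11.15, numpy 2.4.6, pandas 2.3.3 and matplotlib 3.10.9 were used for other steps.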

Additional observations from a re-analysis of the deposited data

How the results depend on the processing

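Values of the 9 receptor genes under alternatives were set beside the larger of the 2 group SDs between libraries on the log2 scale. For Cxcr3 and Ccr6 in ABCs, replicate 3 itself widens this SD. Their moves without that library (2.31 to 3.46 and -0.74 to -0.40) therefore count as less than 1 SD, which does not show stability. Of 241 values under alternatives, 233 moved by less than 1 SD and 8 moved further. Of these 8, the pseudocount of 0.1 gave differences of 0.50 (Ccr9), 4.02 (Ackr2) and -0.94 (Ackr3) between ABCs and FO B (Aged) and of 3.39 (Cxcr3) and -0.71 (Ccr9) with age, while upper-quartile scaling gave -1.38 (Cxcr5) and 0.03 (Ccr7) for ABCs and -0.27 (Cxcr5) with age. The sign of Ackr3 with age also changed with a library left out (-0.16 to 0.04). The 4 and 3 receptor genes without overlap became 4 to 6 and 3 to 4 with each library left out. The 3 with age became 2 with scaling to TPM, under which Cxcr5 overlapped.

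Between ABCs and FO B (Aged), 2072 genes were called (1254 higher, 818 lower), 3739 at an FDR under 0.05, and 976 to 2124 with each library left out, fewer by over 1.5 times without FO B (Aged) replicate 1 (976), 2 (1192) or 3 (1033) or ABCs replicate 1 (1310). Upper-quartile scaling turned the split to 1405 higher and 273 lower, and quantile normalization gave 1072 and 1023. With age, 47 genes were called (35 higher, 12 lower), 24 and 27 with upper-quartile scaling, 15 with no filter, 30 without a trend, 18 with all 9 libraries in the fit, 17 at an FDR under 0.01, and 19 to 69 with each library left out, of which 21 without FO B (Young) replicate 1, 23 without replicate 2 and 19 without FO B (Aged) replicate 1. The cause was not tested, beyond the fewer libraries in the last fits. Over genes, deviations of same-numbered libraries correlated weakly (r = 0.08, -0.02 and 0.11 between ABCs and FO B (Aged), and -0.05, 0.14 and -0.09 between FO B groups). ABCs replicates 1 and 3 correlated best with their own number, replicate 2 did not. Whether ABCs and FO B (Aged) came from the same mice is not stated, so pairing remains possible. Cxcr3 had the same replicate order in both, and the replicate block lowered its SE from 0.90 to 0.56. For Ackr2 the block raised the SE from 0.16 to 0.18, and it also rose for Ccr9 and Ccrl2. With the replicate number as a block, 964 higher and 535 lower genes were called for ABCs (1499 in all) and 28 and 9 with age (37 in all).

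In ABCs, the 4 called genes of the Gi list became 1 with quantile normalization, 2 with upper-quartile scaling, 8 at an FDR under 0.05, and 0 to 6 with each library left out (0 without FO B (Aged) replicate 1, 1 without replicate 2 or 3 or without ABCs replicate 1, 2 without ABCs replicate 2). The 2 called desensitisation genes became 1 with no filter, a mean of at least 5 FPKM or upper-quartile scaling, 4 at an FDR under 0.05, and 1 to 2 with each library left out. The 1 called transcription factor gene became 3 with all 9 libraries in the fit or at an FDR under 0.05, and 2 with the replicate block. With age, 0 to 1 transcription factor genes were called with each library left out, the 1 being Tbx21 without FO B (Aged) replicate 3. The cause was not tested. Ccr1, Cxcl10, Ccl19, Ccl5, Grk5 and Tbx21 stayed called in ABCs at an FDR under 0.01 under every alternative whose filter they passed, but Cxcl10, Ccl19, Ccl5 and Grk5 passed the filter of 1 FPKM through ABCs alone, where they are high, so this says nothing of their stability. Genes below 1 FPKM, such as Ccr9, Ackr3 and most other receptor genes, rest on few reads.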
